A study of Mus musculus with 6 samples.

Results

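The genes described here are a small myeloid group: the C/EBP transcription factors Cebpa, Cebpb, Cebpd and Cebpe, the repressor Gfi1, and the colony-stimulating factor (CSF) receptors Csf1r, Csf2ra, Csf2rb and Csf3r. They were taken as all array probes whose gene name equals 1 of these 9 symbols. This gave 14 of the 41174 probes and 8 of the 27827 gene names on the array; Cebpe had no probe under that name and is not analysed here. Of the 14 probes, 11 passed the filter on dim signal and were tested, and they cover 7 genes. The remaining 3 were 1 probe of Cebpa, 1 of Csf1r and the only probe of Csf3r.

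The study measured total RNA of mouse pre-pro-B cells, an early lymphoid stage, with 6 single-colour (Cy3) Agilent arrays. In the Ebf1 virus group (n = 3), Ebf1 -/- cells carried a retrovirus named pMYs-Ebf1beta-IRES-EGFP, which delivers the transcription factor Ebf1 together with the green marker EGFP. In the control virus group (n = 3), cells of the same Ebf1 -/- genotype carried pMYs-IRES-EGFP, the vector with the marker alone. Both groups grew on a layer of OP9 stroma in medium with 3 cytokines (interleukin 7, stem cell factor, Flt3-ligand, 10 ng/ml of each). They were left for 24 h after infection and sorted for EGFP. The labels give both groups the same knockout genotype, and the vector is the source of Ebf1 that they name for the Ebf1 virus group. Animal age and strain are not given in the sources used here. Nothing in the labels says whether replicates came from separate cultures or animals, so p-values measure only the spread between these samples, which may be technical.

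C/EBP proteins bind DNA as pairs held together by a leucine zipper. Cebpa is required in the mouse for granulocyte production and favours myeloid over lymphoid fate, Cebpb supports granulopoiesis under stress and macrophage gene expression, and Cebpd is an inducible relative. Gfi1 is a zinc finger repressor needed for neutrophil formation in the mouse and active in lymphoid progenitors as well. Csf1r, Csf2ra with the shared beta chain Csf2rb, and Csf3r receive the signals M-CSF, GM-CSF and G-CSF, and their genes are classical targets of C/EBP proteins and PU.1.

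The probes of Cebpa and Cebpb that lie over the coding sequence of the leucine zipper are shown first, because the genes share this domain. The printed letters show that each is read by a sequence of its own. Cebpa and Cebpb moved in opposite directions, but the printed Cebpa probe was too dim to be tested. The Cebpa decrease came from another probe, not printed here. Capitals mark leucine codons that stand 7 codons from another leucine codon, the spacing of a zipper. The Cebpa sequence, on chr7:35905361-35905420 of mm9 (plus strand), holds 2 such codons and the Cebpb sequence, on chr2:167515309-167515368 of mm9 (plus strand), holds 3. Both are probe sequences, written 5′ to 3′.
Cebpa: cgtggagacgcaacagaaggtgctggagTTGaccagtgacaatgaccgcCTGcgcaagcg
Cebpb: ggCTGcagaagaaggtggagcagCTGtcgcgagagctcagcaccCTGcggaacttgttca

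A level below is the background-subtracted signal of a probe divided by the 75th percentile signal of its array, so that 1 means equal to that percentile. Means ± SD are of log2 levels over 3 arrays, a change is the Ebf1 virus mean minus the control virus mean of log2 levels, and adjusted p-values are from limma with Benjamini-Hochberg adjustment over all 20454 tested probes (threshold 0.05). Levels of different probes are not comparable, because probes differ in binding.

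Of the 7 tested genes, each by its brightest tested probe, Cebpb, Cebpd and Csf1r rose with the Ebf1 virus, Cebpa and Gfi1 fell, and Csf2ra and Csf2rb did not pass the test. Over all 13836 genes tested in the same way, 12.6% rose and 11% fell, so 23.6% passed in either direction. Of all calls over probes, 53% were higher, against 32.2% with arrays scaled on their median, which shifts all changes down: the median over all tested probes was then -0.37, beside -0.06. The median change of the 7 genes was 0.41, against -0.06 over all genes tested. By single probes, 5 of the 11 tested probes rose and 2 fell, beside 11.5% and 10.2% of all tested probes. Both tested Csf1r probes passed the filter only through the Ebf1 virus group, so a difference was built into their selection and the counts are given as a description. The arrays lay on 3 slides, and only slide 1 held both groups (Ebf1 virus replicate 1 and control virus replicate 2), so a fit with slide as a block takes its difference from these 2 arrays.

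**Figure D1:**
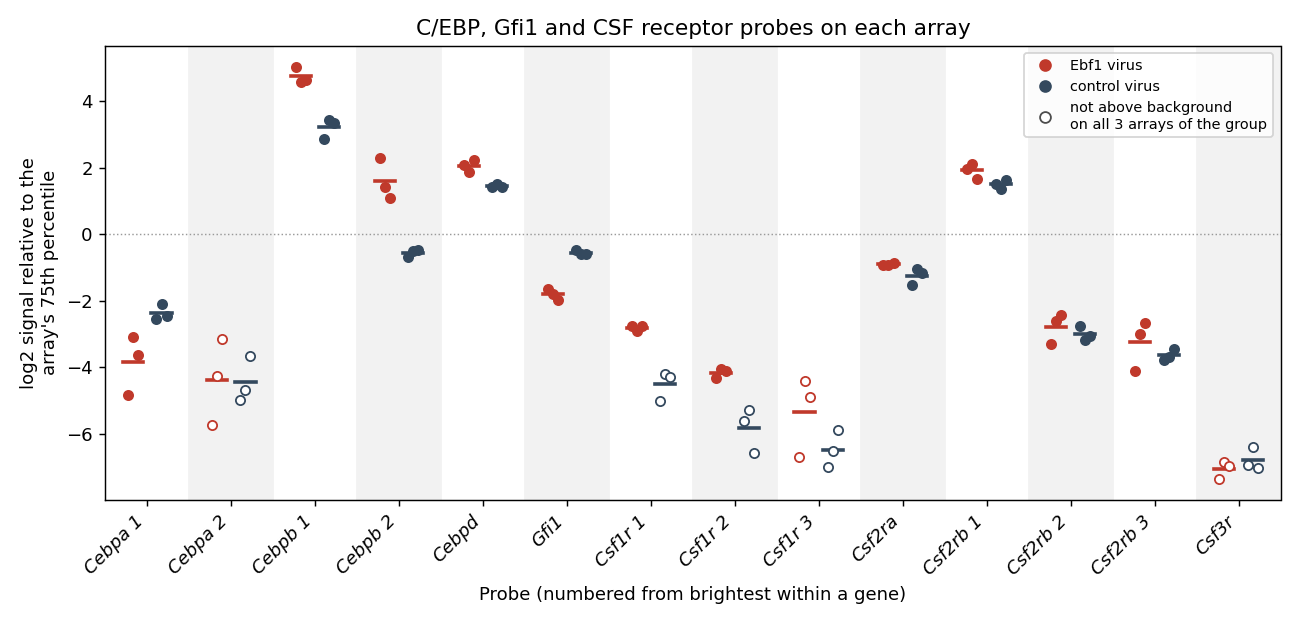
Log2 level of each of the 14 probes on each array, relative to the array's 75th percentile signal, with Ebf1 virus arrays in red to the left of control virus arrays in dark for each probe; bars are group means, and open points mark a group in which the probe was not above background on all 3 arrays. The 3 Ebf1 virus values of Cebpb, Cebpd and the bright Csf1r probe lie above all control virus values, and those of Gfi1 and the bright Cebpa probe lie below them.

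The 75th percentile signal was 316.4 to 364 on Ebf1 virus arrays and 239.9 to 365.7 on control virus arrays, and 50.3% to 59.8% of probes were well above background on Ebf1 virus arrays, against 46.3% to 50.2% on control virus arrays. The arrays' number limits the precision. For Ebf1 itself, the brighter of 2 probes had levels of 1.16, 1.32 and 1.20 with the Ebf1 virus and 1.81, 1.07 and 1.29 with the control virus, a change of -0.15 (SE 0.21, adjusted p = 0.646 by limma), and the other stayed below the background limit on all 6 arrays. The brighter probe was thus above background in both groups and not higher with the Ebf1 virus. Where these probes lie relative to the viral insert and to the deleted part of the gene was not determined here, so they do not check the labels.

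Cebpb, which in the mouse supports macrophage and emergency granulocyte gene expression, showed the clearest increase in the C/EBP family. Its brighter probe, on chr2:167515847-167515905 of mm9, had levels of 33.2, 24.3 and 24.9 in the 3 Ebf1 virus samples and 7.36, 11.0 and 10.3 in the 3 control virus samples. All Ebf1 virus values were above all control virus values, and the gap between the groups was wider than the spread among the control virus samples. Mean log2 levels were 4.76 ± 0.25 with the Ebf1 virus and 3.23 ± 0.31 with the control virus, a change of 1.53 (SE 0.21, 95% interval 1.04 to 2.02, adjusted p = 0.00187 by limma), or 2.89-fold. The zipper probe printed above had levels of 4.97, 2.68 and 2.15 with the Ebf1 virus and 0.626, 0.704 and 0.725 with the control virus. Its change was 2.16 (SE 0.30, 95% interval 1.48 to 2.85, adjusted p = 0.00187 by limma), or 4.48-fold, so both probes of the gene rose, by amounts whose intervals overlap. Ebf1 virus replicate 1 was the highest sample on both probes, and within slide 1 alone the changes were 1.60 and 2.82.

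Cebpd, a relative that is induced by inflammatory signals, rose less. Its only probe, on chr16:15888459-15888518 of mm9, had levels of 4.24, 3.66 and 4.73 with the Ebf1 virus and 2.70, 2.87 and 2.66 with the control virus. The groups did not overlap, and the control virus samples were close to each other. The means were 2.07 ± 0.19 with the Ebf1 virus and 1.46 ± 0.06 with the control virus, a change of 0.61 (SE 0.15, 95% interval 0.26 to 0.96, adjusted p = 0.0257 by limma), or 1.53-fold. The call did not hold when arrays were scaled on their median (change 0.30, adjusted p = 0.54 by limma) or when any 1 sample other than Ebf1 virus replicate 2 was left out (adjusted p up to 0.0889 by limma). The median-scaled fit gave Cebpd an SE of 0.34, the same as for the other tested genes of this group. Its p-value thus reflects a shared variance as well as the scaling.

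Cebpa, the family member most closely tied to granulocyte commitment in the mouse, fell on the probe that could be tested. That probe, on chr7:35906517-35906576 of mm9, had levels of 0.0349, 0.117 and 0.0815 with the Ebf1 virus and 0.171, 0.232 and 0.181 with the control virus. The groups did not overlap, and the Ebf1 virus samples were spread more widely than the control virus samples, with replicate 1 the lowest. Means were -3.85 ± 0.90 with the Ebf1 virus and -2.37 ± 0.24 with the control virus, a change of -1.48 (SE 0.41, 95% interval -2.43 to -0.53, adjusted p = 0.0388 by limma). The call did not hold with another background correction (change -0.56, adjusted p = 0.085 by limma) or when Ebf1 virus replicate 3 or any of the control virus replicates was left out (changes -1.86 to -0.98 over the 6 fits that left out 1 sample). Within slide 1, which holds the lowest Ebf1 virus sample and the highest control virus sample, the difference was -2.74.

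The zipper probe of Cebpa was too dim to be tested. Its levels were 0.0187, 0.0517 and 0.112 with the Ebf1 virus and 0.0314, 0.0391 and 0.0784 with the control virus, and it was well above background on 2 of 3 Ebf1 virus arrays and on 1 of 3 control virus arrays. The groups overlapped, and the mean log2 levels were -4.39 ± 1.30 with the Ebf1 virus and -4.45 ± 0.69 with the control virus. The decrease of Cebpa therefore rests on 1 probe of 2.

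**Figure D2:**
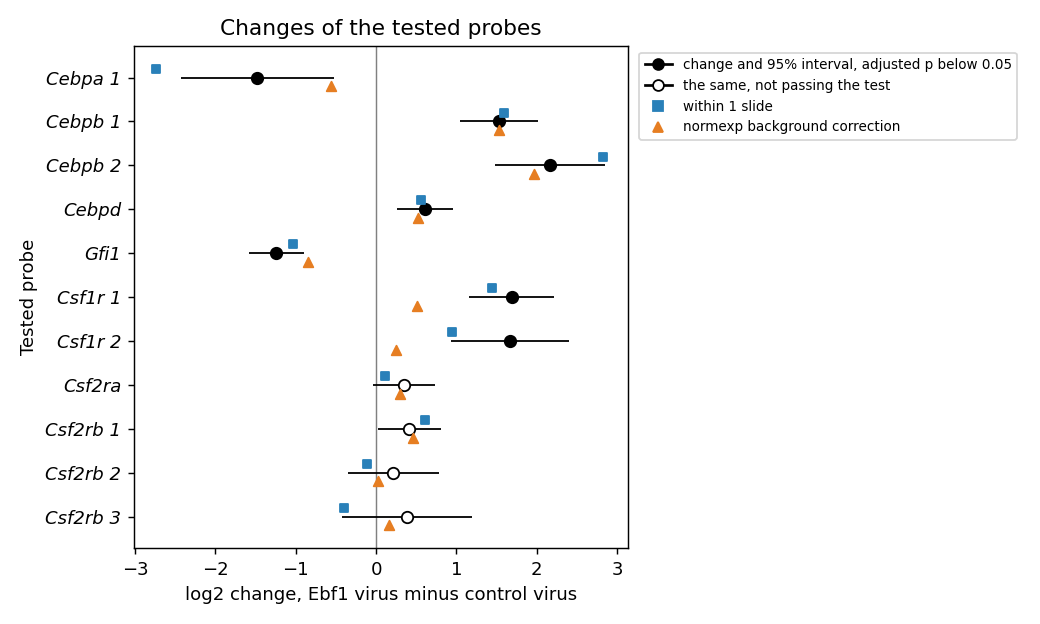
Change of each of the 11 tested probes on the log2 scale, Ebf1 virus minus control virus, with 95% intervals from the limma fit (filled where called), squares for the difference within slide 1 and triangles for the change with normexp correction. The probes of Cebpb, Cebpd and Csf1r have intervals above 0, those of Cebpa and Gfi1 below 0, and 2 of the 3 Csf2rb probes and the Csf2ra probe have intervals that include 0. The interval of the brightest Csf2rb probe, 0.02 to 0.80, is above 0, and its p-value did not pass adjustment.

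Gfi1, the repressor, fell, with the smallest adjusted p-value among the tested probes of these genes. Its probe, on chr5:108145852-108145911 of mm9 (minus strand), had levels of 0.320, 0.288 and 0.257 with the Ebf1 virus and 0.723, 0.658 and 0.661 with the control virus. The groups were far apart beside their spread, and all 3 Ebf1 virus samples were below all 3 control virus samples. Means were -1.80 ± 0.16 with the Ebf1 virus and -0.56 ± 0.08 with the control virus, a change of -1.24 (SE 0.15, 95% interval -1.58 to -0.90, adjusted p = 0.000866 by limma), so that signal was 2.37-fold lower with the Ebf1 virus. The call held in each of the 6 fits that left out 1 sample. With slide as a block the change was -1.04 (adjusted p = 0.0572 by limma). In bulk samples such as these, fewer cells of a type and less RNA per cell cannot be told apart.

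Promoters of 5 of these genes (Cebpa, Cebpb, Csf2ra, Csf3r and Gfi1) were searched for motifs of C/EBP, GFI1 and EBF. A promoter of Gfi1 is printed because it was the one with a match. There were 6 promoters in all, because Gfi1 has 2 starts in the RefSeq promoter table used here. Promoters of Cebpd, Cebpe, Csf1r and Csf2rb were not part of this search, so its counts say nothing about them. On both strands, the C/EBP motif TTGCNNAA was found in 1 of the 6 promoters, that of Gfi1 printed here, and in 9.56% of all 32851 promoters of the same length. The GFI1 motif AATCNNNGC, in 8.87% of all promoters, and the EBF motif, TCCC and GGGA with any 2 bases between them, in 0.779%, were found in none of the 6 promoters. Capitals mark the C/EBP match, which lies 143 to 136 bases before the start, on chr5:107725806-107726055 of GRCm38.p6 (minus strand, 5′ to 3′), and a match is a description of letters, not a bound site.
Gfi1: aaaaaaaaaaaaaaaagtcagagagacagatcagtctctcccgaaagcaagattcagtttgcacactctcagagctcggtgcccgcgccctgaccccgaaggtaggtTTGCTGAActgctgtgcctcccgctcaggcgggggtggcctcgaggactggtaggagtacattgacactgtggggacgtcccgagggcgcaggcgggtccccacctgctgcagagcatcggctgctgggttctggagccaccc

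Csf1r, the receptor for M-CSF and IL-34 that marks monocytes and macrophages, rose, with dim signal in both groups. Its brightest probe, on chr18:61290384-61290443 of mm9, had levels of 0.147, 0.134 and 0.148 with the Ebf1 virus and 0.0311, 0.0541 and 0.0516 with the control virus, and was well above background on 3 of 3 Ebf1 virus arrays and on 2 of 3 control virus arrays. The groups did not overlap. Means were -2.81 ± 0.08 with the Ebf1 virus and -4.50 ± 0.44 with the control virus, a change of 1.69 (SE 0.23, 95% interval 1.16 to 2.22, adjusted p = 0.00173 by limma). The second probe had levels of 0.0496, 0.0608 and 0.0579 with the Ebf1 virus and 0.0204, 0.0257 and 0.0104 with the control virus, where no array had it above background, so signal was at least 1.45-fold higher with the Ebf1 virus (adjusted p = 0.0091 by limma). The third probe was well above background on 1 Ebf1 virus array, on no control virus array, and was not tested; its groups overlapped. With another background correction (normexp), the change of the brightest probe was 0.50 (adjusted p = 0.0597 by limma), and with slide as a block it was 1.44 (adjusted p = 0.0636 by limma). For the second probe the change was 0.24 with normexp (adjusted p = 0.413 by limma) and 0.95 with slide as a block, neither passing the test.

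Csf2ra, the GM-CSF-specific alpha chain, did not pass the test. Its probe, on chr19:61300336-61300395 of mm9 (minus strand), had levels of 0.528, 0.525 and 0.556 with the Ebf1 virus and 0.347, 0.487 and 0.445 with the control virus. The groups did not overlap, though the nearest values, 0.525 and 0.487, were close, and of all tested probes 42.6% had groups that did not overlap. The change was 0.35 (SE 0.17, 95% interval -0.04 to 0.73, adjusted p = 0.177 by limma).

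Csf2rb, the beta chain that GM-CSF, IL-3 and IL-5 receptors share, also did not pass the test on any of its 3 probes. The brightest, on chr15:78181168-78181227 of mm9, had levels of 3.95, 4.33 and 3.20 with the Ebf1 virus and 2.85, 2.59 and 3.14 with the control virus. Its groups were adjacent but did not overlap, with a change of 0.41 (SE 0.17, 95% interval 0.02 to 0.80, adjusted p = 0.12 by limma). The other 2 probes were dimmer and their groups overlapped, with changes of 0.22 (95% interval -0.35 to 0.78) and 0.39 (95% interval -0.42 to 1.19) and adjusted p-values of 0.559 and 0.459 by limma. Within slide 1 these 2 probes had differences of -0.12 and -0.40, opposite in sign to the change over all arrays. Csf2rb has a near-identical neighbour in the mouse, Csf2rb2, the IL-3-specific beta chain, and cross-hybridisation between them was not tested; Csf2rb2 had a change of 0.33 (adjusted p = 0.187 by limma).

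Csf3r, the G-CSF receptor of granulocytes, did not exceed the background limit on any of the 6 arrays. Its probe, on chr4:125721294-125721353 of mm9, had levels of 0.0061, 0.0087 and 0.0080 with the Ebf1 virus and 0.0082, 0.0119 and 0.0077 with the control virus. The values overlapped and lie below what the arrays resolve, so no difference could be measured.

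Genes related to these by family or pathway were described from lists, for which counts are beside 12.6% higher and 11% lower among all genes tested. Of 5 relatives, all tested, 1 rose and 1 fell, with a median change of 0.20. This list holds Cebpg, Cebpz, Ddit3 and Gfi1b beside Csf2rb2, the relative of Csf2rb described above. Gfi1b, the closely related repressor of erythroid and megakaryocyte cells, had levels of 3.84, 3.75 and 4.50 with the Ebf1 virus and 12.4, 13.5 and 13.3 with the control virus, a change of -1.70 (SE 0.14, adjusted p = 1.47e-04 by limma). Gfi1 and Gfi1b thus both fell, each with groups that did not overlap. Ddit3, a stress-induced C/EBP relative that pairs with the others, rose by 0.99 (SE 0.15, adjusted p = 0.00318 by limma), with levels of 1.17, 1.38 and 1.36 with the Ebf1 virus and 0.660, 0.590 and 0.722 with the control virus. Cebpg and Cebpz did not pass the test, with changes of 0.20 and -0.83.

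Among 12 ligands and related receptors, 7 were tested, of which 3 rose and 1 fell (median change 0.47). Il34, the second ligand of Csf1r, had levels of 0.198, 0.158 and 0.228 with the Ebf1 virus and 0.0297, 0.0301 and 0.0407 with the control virus, where it was above background on 1 of 3 arrays, a change of 2.54 (SE 0.20, adjusted p = 1.11e-04 by limma). Csf1, the other ligand of Csf1r, had levels of 0.612, 0.512 and 0.553 with the Ebf1 virus and 0.337, 0.397 and 0.340 with the control virus, and rose by 0.64 (SE 0.15, adjusted p = 0.0202 by limma). Il34 and Il6ra, like Csf1r, passed the filter only through the Ebf1 virus group, and Csf2 only through the control virus group, so their difference was built into their selection. Csf2, the gene for GM-CSF, fell: its levels were 0.0193, 0.0196 and 0.0519 with the Ebf1 virus, above background on 1 of 3 arrays, and 0.198, 0.167 and 0.220 with the control virus, a change of -2.84 (SE 0.37, adjusted p = 0.00157 by limma). Il6ra, the interleukin 6 receptor, rose by 1.84 (SE 0.26, adjusted p = 0.0023 by limma). The changes of these dim genes were smaller with normexp background correction, 0.79 for Il34, -0.77 for Csf2 and 0.62 for Il6ra, and Csf1 was not called there (adjusted p = 0.0582 by limma).

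Of 16 regulators that act with or on C/EBP proteins, most of them transcription factors, 14 were tested, of which 4 rose and 2 fell (median change -0.35). Klf4, a factor of monocyte differentiation, rose by 1.48 (SE 0.22, adjusted p = 0.00296 by limma), with levels of 6.05, 10.3 and 7.88 with the Ebf1 virus and 2.46, 3.30 and 2.77 with the control virus. Runx1, which in the mouse starts definitive blood formation and binds with C/EBP and PU.1, fell by 1.65 on the log2 scale (SE 0.26, adjusted p = 0.0034 by limma), and both its tested probes fell. Trib1, which promotes the breakdown of C/EBP alpha protein, fell by 1.00 (SE 0.15, adjusted p = 0.0034 by limma), and Cux1, a homeodomain repressor that competes for CCAAT boxes, rose by 0.67 (SE 0.13, adjusted p = 0.0103 by limma). The list thus moved in both directions. The gene of PU.1, Spi1 (Sfpi1 on the array), did not pass the test, with a change of -0.37 (adjusted p = 0.14 by limma), a value singled out after it was seen.

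**Figure D3:**
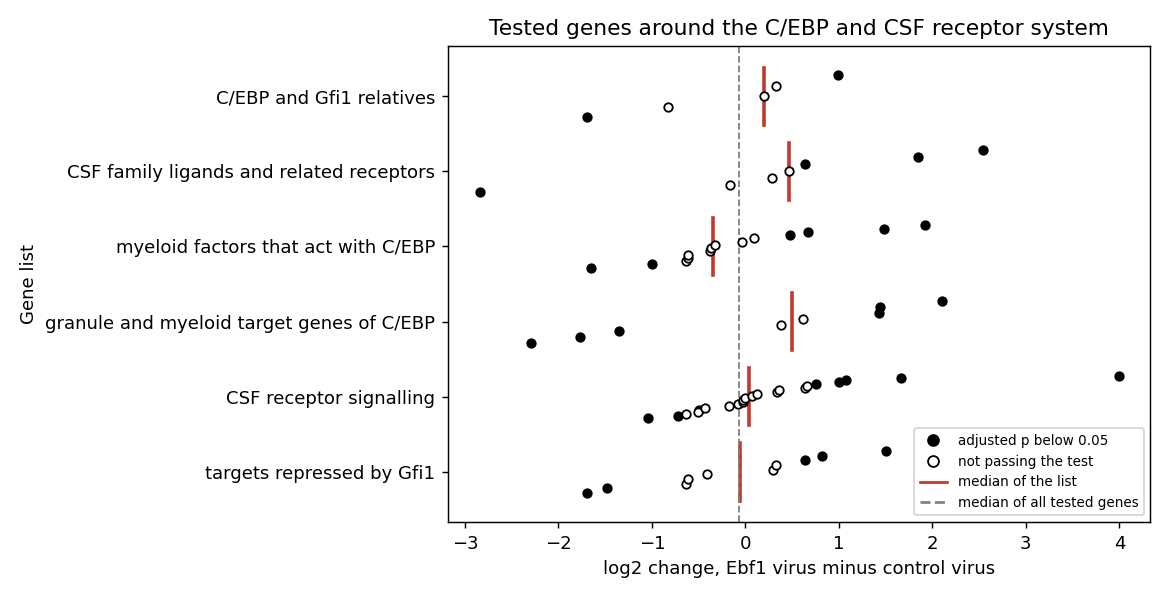
Change of every tested gene of the lists around these genes on the log2 scale, Ebf1 virus minus control virus, with called genes filled, red bars at list medians and a dashed line at the median of all tested genes (-0.06). In each of the plotted lists some genes lie above 0 and some below it.

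Granule proteins and other myeloid targets of C/EBP were mostly too dim to test: 8 of 22 were tested, of which 3 rose and 3 fell (median change 0.50). Prtn3, proteinase 3 of neutrophil and monocyte precursors, had levels of 0.13, 0.147 and 0.119 with the Ebf1 virus and 0.0544, 0.0528 and 0.0407 with the control virus, a change of 1.43 (SE 0.17, adjusted p = 9.7e-04 by limma). The call of Prtn3 did not hold with normexp correction (change 0.41, adjusted p = 0.107 by limma). Ly6c2, a surface marker of inflammatory monocytes, rose by 1.44 (SE 0.14, adjusted p = 3.02e-04 by limma), and Chi3l3, a chitinase-like protein, was called higher (adjusted p = 2.96e-04 by limma) but was not well above background in the control virus samples, and its change with normexp correction was 0.16. Fcgr1, the high-affinity IgG receptor, had levels of 0.0580, 0.0692 and 0.121 with the Ebf1 virus and 0.331, 0.419 and 0.412 with the control virus, a change of -2.29 (SE 0.28, adjusted p = 0.00101 by limma). Prtn3 and Chi3l3 passed the filter only through the Ebf1 virus group. With normexp correction the change of Fcgr1 was -1.04, still called. Mpo, the myeloperoxidase of azurophil granules, fell by 1.77 on the log2 scale (SE 0.22, adjusted p = 0.00114 by limma), with levels of 0.90, 1.4 and 1.33 with the Ebf1 virus and 3.40, 4.07 and 4.76 with the control virus.

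Of 24 genes of CSF receptor signalling, 22 were tested, of which 5 rose and 3 fell (median change 0.03). Stat5a, which carries signals of the Csf2rb chain and of the interleukin 7 receptor, rose by 1.66 (SE 0.26, adjusted p = 0.0035 by limma). Inpp5d, the phosphatase SHIP1 that limits these signals, rose by 1.08 (SE 0.17, adjusted p = 0.00395 by limma), and Fes, a myeloid tyrosine kinase, fell by 1.04 (SE 0.18, adjusted p = 0.0065 by limma). Among genes that Gfi1 represses, 10 of 11 were tested, of which 3 rose and 2 fell (median change -0.06). Ets2, a transcription factor, rose by 1.5 (SE 0.15, adjusted p = 3.34e-04 by limma) and Cdkn1a, a cell cycle inhibitor, rose by 0.81 (SE 0.18, adjusted p = 0.0175 by limma). Csf1, above, is the third that rose, and Gfi1b and Cebpa, also above, are those that fell. With slide as a block, the calls of Ddit3, Il6ra, Csf1, Klf4, Trib1, Cux1, Prtn3, Inpp5d, Fes and Cdkn1a did not hold (adjusted p = 0.0537 to 0.174 by limma), and Klf4 had a change of 0.88. Median scaling ended the calls of Ddit3, Csf1, Cux1, Inpp5d and Cdkn1a. The calls of Csf1 and Cdkn1a held in 3 and 2 of the 6 fits that left out 1 sample.

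Cell type markers were read as sums of levels over each list, as a check on the labels and on other cell types that the samples could hold; their part in the results above was not tested. All 12 pre-pro-B and lymphoid progenitor markers were above background on all 6 arrays, with sums of 336.1, 334.1 and 327.4 with the Ebf1 virus and 249.7, 347.4 and 351.8 with the control virus, and 2 rose and 5 fell. Ly6d, a marker of B cell commitment, rose by 2.62, while Il7r, Kit and Spn fell by 1.69, 1.82 and 1.60 on the log2 scale (all called by limma). The neutrophil sum was 1.02 to 1.66 with the Ebf1 virus and 3.55 to 4.94 with the control virus. Of its 12 markers on the array, 6 were not above background anywhere (S100a8, S100a9, Ltf, Lcn2, Retnlg and Stfa1), and the single tested gene, Mpo, fell. The monocyte and macrophage sum was 50.9 to 60.1 with the Ebf1 virus and 29.4 to 37.4 with the control virus, with only C1qa below background everywhere. Of its 9 tested genes, 3 rose, among them the scavenger receptor Marco with a change of 1.27 (SE 0.16, adjusted p = 0.00129 by limma). With slide as a block, Marco was not called (adjusted p = 0.0622 by limma). The 3 that fell include the chemokine receptor Ccr2 with a change of -2.89 and Mrc1 with -2.67. Mrc1 passed the filter only through the control virus group.

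The mast cell and basophil sum was 0.265 to 0.331 with the Ebf1 virus and 0.264 to 0.411 with the control virus, with 5 of 9 markers below background everywhere (Mcpt8, Fcer1a, Ms4a2, Tpsab1 and Prss34) and, of 3 tested, 2 higher (Gata2 and Hdc, neither above background on any control virus array) and 1 lower (Cpa3). With normexp correction 0 of them were called higher (Gata2 had 0.38 and Hdc 0.10). The dendritic cell sum was 46.1 to 53.9 with the Ebf1 virus and 62.2 to 75.3 with the control virus, with 3 of 5 tested genes lower (Itgax, Batf3 and Siglech) and 2 of 8 markers below background everywhere (Clec9a and Clec10a). Siglech passed the filter only through the control virus group. Its call did not hold with normexp correction (change -0.25, adjusted p = 0.325 by limma) or with slide as a block (adjusted p = 0.20 by limma). The stromal feeder sum was 27.6 to 34.3 with the Ebf1 virus and 16.4 to 23.2 with the control virus, with 3 of 10 tested genes higher (Fn1, Col5a1 and Fstl1, with 0 to 3 of the list called higher when 1 sample was left out and 7 with normexp correction), none lower, and 2 of 14 below background everywhere (Postn and Kitl). Bright probes set these sums, so each was also taken without its brightest marker, an alternative chosen after seeing the data. Without Marco, the monocyte and macrophage sum was 15.01, 16.3 and 17.6 with the Ebf1 virus and 15.3, 21.2 and 18.2 with the control virus, and the groups overlapped. Without Mpo, the neutrophil sum was 0.111 to 0.333 with the Ebf1 virus and 0.154 to 0.181 with the control virus, and the groups overlapped. Bst2, which was not called (change -0.43, adjusted p = 0.0788 by limma), made up nearly all of the dendritic cell sum. Without it, that sum was 0.389 to 0.611 with the Ebf1 virus and 1.39 to 1.69 with the control virus. The stromal sum without Pdgfrb was 16.5 to 21.6 with the Ebf1 virus and 10.46 to 15.03 with the control virus. The sums whose groups overlapped with all markers did not overlap without the brightest. The pre-pro-B sum without Cd34 was 243.8 to 277.5 with the Ebf1 virus and 119.1 to 147.0 with the control virus. Ly6d was the largest part of that sum with the Ebf1 virus. Its levels were 186.4, 185.0 and 166.2 there, against 23.0, 36.3 and 29.3 with the control virus, while 5 of the 12 markers fell. The mast cell sum without Cpa3 was 0.227 to 0.262 with the Ebf1 virus and 0.113 to 0.133 with the control virus.

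**Figure D4:**
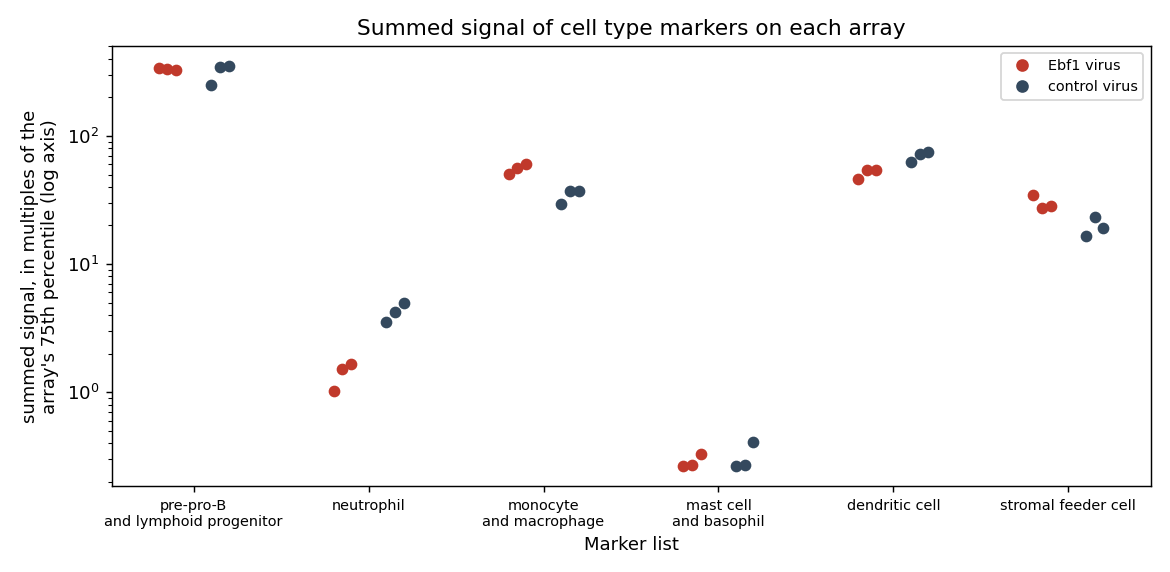
Summed level of each marker list on each array, in multiples of the array's 75th percentile signal on a log axis, with Ebf1 virus arrays in red to the left of control virus arrays in dark. With all markers, the monocyte and macrophage and stromal sums are higher with the Ebf1 virus, the neutrophil and dendritic cell sums are lower, and the pre-pro-B and mast cell sums overlap; Marco sets the monocyte and macrophage separation and Mpo the neutrophil one, and Bst2 makes up nearly all of the dendritic cell sum.

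The genes most like each in pattern over the 6 arrays were named by Pearson correlation of log2 levels among 10547 genes, as a description of 6 points that fall in 2 groups. Cebpb was most like Ift122 (r = 0.99995) and Bmf (r = 0.998), Cebpd like Tada3 (r = 0.995) and Frmd6 (r = 0.994), and Cebpa like Fam110a (r = 0.997) and Pank3 (r = 0.996). Gfi1 was most like Mcam (r = 0.999) and Ubtf (r = 0.999). Csf2ra was most like Hmgb3 (r = 0.991) and Cenpf (r = 0.988), and Csf2rb like Wipi2 (r = 0.997) and Pxn (r = 0.982).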

How the data were processed

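The values are spot intensities, which the authors deposited as Agilent Feature Extraction output. Per the file headers, version 10.5.1.1 subtracted background and removed spatial trends, with no normalisation between arrays, and probe positions are on mm9. The deposited table of values equalled the processed signal of each array (largest difference 0%), with column medians of 12.7, 12.3 and 19.7 for Ebf1 virus samples and 13.1, 7.62 and 9.07 for control virus samples, so it holds linear intensities that are neither centred nor ratios.

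Log2 of the processed signal, minus each array's 75th percentile over 43379 non-control features, was computed here from the deposited intensities. Flagged outlier spots were left out and spots of 1 probe averaged. A probe was tested when well above background on all 3 arrays of at least 1 group. Groups were compared with limma 3.58.1 in R 4.3.3. Files were read with the package data.table, release 1.17.8. The code was tested on simulated data. Promoter sequences are from RefSeq (GRCm38.p6), and 25097 probes were named through RefSeq accessions. A gene was represented by its brightest tested probe.

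The genes and lists were chosen with earlier results of these data known. Named genes are all those of the group with every probe, up to 4 called genes of each list with the smallest p, and the 2 genes most like each in pattern. One gene that this rule names is not reported here. Alternatives were normexp background correction (offset 50), other scaling, other filters, slide or replicate number as a block, eBayes with trend, the mean of a gene's probes, the deposited values, and leaving out each sample.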

Additional observations from a re-analysis of the deposited data

How the results depend on the processing

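No result on these genes reversed on the brightest tested probe of each. The dimmer Csf2rb probes changed sign within slide 1 (-0.12 and -0.40). Cebpb was called under all 11 alternatives (1.22 to 1.85) and in all fits that left out 1 sample (1.35 to 1.64), while Csf2ra and Csf2rb were called in none. The 11 include the deposited values, which equal the processed signal, so that fit could not differ from the main one. The number called higher fell to 1 of 7 with slide as a fixed block and was 2 to 3 when 1 sample was left out. The number called lower fell to 1 with normexp correction, with no filter on dim probes and with slide as a fixed block, and was 1 to 2 when 1 sample was left out. With normexp correction, Cebpa had -0.56 and Csf1r 0.50. With no filter on dim probes, Cebpa had -1.48 (adjusted p = 0.16) and Cebpd 0.61 (adjusted p = 0.135). With slide as a fixed block, Cebpd had 0.56, Gfi1 -1.04 and Csf1r 1.44. With median scaling, Cebpd had 0.30. Leaving out 1 sample gave -1.86 to -0.98 for Cebpa, 0.52 to 0.71 for Cebpd, -1.32 to -1.16 for Gfi1, 1.43 to 1.83 for Csf1r, 0.20 to 0.45 for Csf2ra and 0.32 to 0.54 for Csf2rb. Csf1r has no value with the filter on all 6 arrays, as it was not above background on all of them. The cause was not tested in any of these. Of the 620 values of 37 named list genes, 551 kept their side of the threshold and 0 changed sign. Those from the deposited values are counted among them and could not differ.

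Samples that share a number were not treated as pairs in the main fit, and the labels do not say whether they were. The correlations of their deviations were -0.17, -0.25 and 0.10. Replicate 1 of the Ebf1 virus correlated best with replicate 2 of the control virus (0.29), on the same slide. With so few arrays, these correlations cannot decide whether samples were prepared as pairs. With the replicate block, Cebpd had 0.61 (adjusted p = 0.0735) and 3096 probes were called, against 4435 without it. No filter left 1996 called, the slide block 2167, and leaving out control virus replicate 2 or 3 left 2610 or 2822. Of the calls, 53% were higher, against 32.2% with median scaling, and 67.2% with no filter. The number of arrays, dim signal and slides that mostly hold 1 group limit what can be resolved.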
